A study of Mus musculus with 19 samples.

Results

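Sfn, Fhl2, Nupr1, Ndrg1 and Plaur are stress-responsive genes that mark the transitional alveolar state, a passing state of lung alveolar cells after injury. All 5 genes were found by name in lists of translated open reading frames (ORFs), out of 7266 genes that those lists pair with transcripts, and they were followed through 12 listed transcripts, each of which is in the count tables. The samples were C57BL/6 mouse organoids of 2 kinds: lung adenocarcinoma (LUAD) and alveolar type 2 (AT2), the surfactant-making progenitor of the alveolus. Both kinds were plated on matrigel-washed plates for 48 hours and given 100 µM cycloheximide, which stalls elongating ribosomes, for 5 min before harvest; the labels name no further allele or agent for either kind. Ribosome footprints, the RNA fragments that ribosomes protect, came from the RiboLace protocol, in which ribosomes at work on RNA are captured on beads.

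Footprints were measured in 4 LUAD and 3 AT2 libraries and RNA in 4 LUAD and 3 AT2 libraries, and ORFs were listed in 3 LUAD and 2 AT2 libraries. Footprint depth was 4.803 to 14.25 M (1e6) estimated counts in LUAD and 3.03 to 3.834 M in AT2. RNA depth was 27.182 to 33.204 M in LUAD and 4.123 to 10.234 M in AT2. No label ties the replicate libraries to separate cultures; p-values therefore cover library-to-library spread that may be technical. In the LUAD libraries Trp53 had 24 footprint and 72 RNA counts in all, against 587 and 2359 in AT2. The 72 LUAD RNA counts came from library 4. Per 1e6 counts of the scaled library size, the footprint means were 0.584 in LUAD and 63.2 in AT2. The RNA means on that scale were 0.691 and 112. AT2 footprint library 1 stood apart: its scaling factor was 0.548, against 1.02 for both other AT2 footprint libraries. Libraries also fell into 2 sets that deviated together, drawn from these same libraries: LUAD 1 and 2 with AT2 1 for footprints, LUAD 1 and 2 with AT2 1 and 2 for RNA, and the rest.

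After lung injury AT2 cells leave their surfactant programme, spread, and pass through a state rich in simple keratins, cell-cycle inhibitors and stress genes before they become flat alveolar type 1 (AT1) cells. Sfn encodes stratifin, the epithelial 14-3-3 sigma protein, which binds phosphorylated partners, is induced by p53 and holds cells back from mitosis. Nupr1 encodes a small disordered nuclear protein induced by the transcription factor ATF4 under nutrient and endoplasmic reticulum stress. Fhl2 encodes a LIM-domain adaptor that moves between focal adhesions and the nucleus, Plaur the membrane-anchored receptor of the protease urokinase, and Ndrg1 a cytoplasmic protein induced by hypoxia and differentiation.

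In LUAD organoids the 5 genes did not move as one. Sfn fell in footprints and in RNA, and Nupr1 fell in RNA. Fhl2 and Plaur rose in RNA, and the footprint changes of Nupr1, Fhl2 and Plaur did not pass the test. Ndrg1 could not be tested. By edgeR's quasi-likelihood test, 1 of the 4 tested genes passed in footprints, where 21.3% of 6820 genes passed, and all 4 passed in RNA, where 36.8% of 6942 genes passed. By counts scaled to library size, the 2 kinds did not overlap for 3 of the 4 genes in footprints (35.7% of all genes). In RNA this held for 4 of 4 (45.3%). Nupr1 footprints did overlap in the deposited length-adjusted values (TPM).

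**Figure D1:**
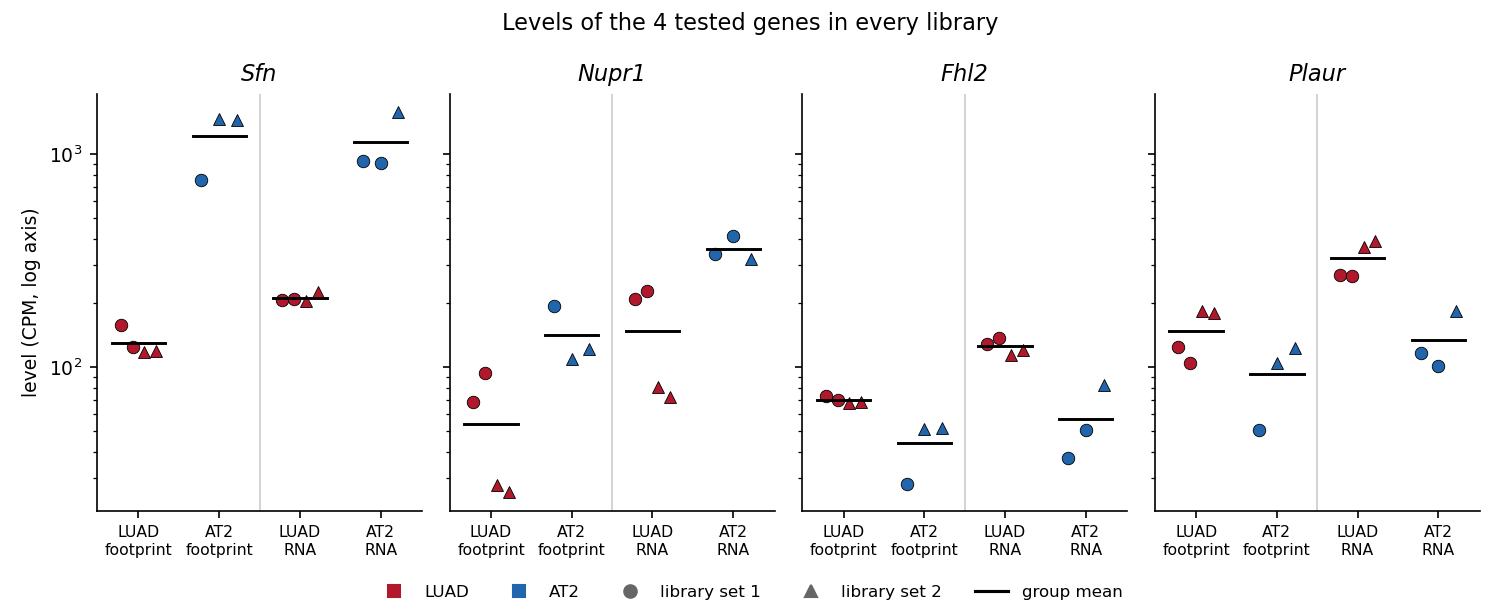
Levels of Sfn, Nupr1, Fhl2 and Plaur in every library, in CPM (counts per 1e6 of the scaled library size) on a log axis. Each point is 1 library, its shape gives the library set, and lines are group means. Sfn in LUAD sits between 118 and 158 CPM in footprints, against 757 to 1471 in AT2.

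Sfn (ENSMUSG00000047281.3, build mm10, chromosome 4, 133600556 to 133602168, minus strand) had 158, 124, 118 and 119 CPM of footprints in LUAD libraries 1 to 4. It had 757, 1471 and 1443 CPM in AT2 libraries 1 to 3. CPM here is the estimated count, summed over a gene's listed transcripts, per 1e6 counts of the scaled library size. Every LUAD library lay far below every AT2 library, and AT2 library 1 was the lowest of its kind. The log2 fold change of LUAD over AT2 was -3.24 ± 0.28 (SE, n = 4 and 3; edgeR adjusted p = 0.000457), or 9.45-fold lower in LUAD. In bulk libraries such as these, fewer cells of a type and less RNA per cell cannot be told apart.

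Sfn RNA stood at 206, 209, 203 and 224 CPM in LUAD, against 931, 909 and 1570 CPM in AT2. The LUAD values lay close together and AT2 library 3 was the highest of all. LUAD over AT2, the log2 fold change was -2.43 ± 0.21 (SE; edgeR adjusted p = 0.000178). Within the first library set the log2 ratio of means was -2.43 for footprints and -2.15 for RNA, and within the second it was -3.62 and -2.88. Both assays rest on 1 listed transcript of Sfn, a protein-coding one of 1613 bases.

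Nupr1 (ENSMUSG00000030717.9, chromosome 7, 126623246 to 126625470, minus strand) had 68.4, 93.6, 27.9 and 25.8 CPM of footprints in LUAD, against 194, 109 and 121 CPM in AT2. In CPM all LUAD libraries were lower, and LUAD libraries 1 and 2 stood well above 3 and 4. In TPM, which accounts for transcript length, AT2 library 1 was at 90.4, below LUAD libraries 1 (107) and 2 (148). The 2 kinds thus overlapped in TPM. The log2 fold change of -1.39 ± 0.48 (SE) did not pass (edgeR adjusted p = 0.0783). DESeq2 gave an adjusted p of 0.0223, edgeR without LUAD footprint library 2 gave 0.0423, and the 7 leave-one-out fits ranged from 0.0423 to 0.160.

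Nupr1 RNA was 208, 227, 80.3 and 72.4 CPM in LUAD, against 340, 412 and 322 CPM in AT2. The LUAD libraries split the same way as in footprints, along the library sets. The log2 fold change was -1.29 ± 0.42 (SE; edgeR adjusted p = 0.0416). That call was lost without AT2 RNA library 1 (0.0925) or 2 (0.125), without LUAD RNA library 3 (0.0844) or 4 (0.0732), and with scaling on all transcripts (0.0733). Within the sets the log2 ratio of RNA means was -0.79 in the first and -2.08 in the second, and that of footprints was -1.26 and -2.09. With the set as a term, the adjusted p was 0.00341 for RNA and 0.000486 for footprints; the sets come from the spread of these same libraries, so such a term lowers the remaining spread.

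The 250 bases upstream of the annotated starts of Sfn and Nupr1 are shown because these are the genes with lower RNA in LUAD, and both windows hold an ATF4-C/EBP composite element. The sequences are from RefSeq on GRCm38.p6 (mm10) and run 5′ to 3′ on the gene's strand. Capitals mark matches to the element TGATGCAA and to the hypoxia response core ACGTG, searched on both strands.
Sfn, chr4:133602169-133602418, minus strand: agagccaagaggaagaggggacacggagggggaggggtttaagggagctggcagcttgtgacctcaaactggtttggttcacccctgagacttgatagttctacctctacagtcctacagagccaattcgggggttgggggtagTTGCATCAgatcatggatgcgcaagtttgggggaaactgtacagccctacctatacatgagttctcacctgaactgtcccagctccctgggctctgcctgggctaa
Nupr1, chr7:126625471-126625720, minus strand: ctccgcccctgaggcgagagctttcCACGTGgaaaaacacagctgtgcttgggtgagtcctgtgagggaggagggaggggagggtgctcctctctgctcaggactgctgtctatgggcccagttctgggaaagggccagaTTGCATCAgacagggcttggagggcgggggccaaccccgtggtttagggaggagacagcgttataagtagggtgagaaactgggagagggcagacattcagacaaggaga
The element starts 106 bases before the start of Sfn and 110 bases before that of Nupr1, in both on the reverse strand. Of 32851 mouse promoter windows of this length, 0.791% hold it. The hypoxia core, in Nupr1 alone of this pair, is held by 16.6% of windows. A p53 half-site, also searched, is in neither window and in 7.13% of all windows. A match describes letters and is not evidence of binding.

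Fhl2 (ENSMUSG00000008136.14, chromosome 1, 43123071 to 43198343, minus strand) had 72.7, 70.2, 67.5 and 68.3 CPM of footprints in LUAD, against 28.0, 51.1 and 51.9 CPM in AT2. Every LUAD library was higher and AT2 library 1 was the lowest. The log2 fold change of 0.66 ± 0.24 (SE) did not pass (edgeR adjusted p = 0.0845). It passed under DESeq2 (0.0304), with scaling on all transcripts (0.0399) and once the library set entered the fit (0.0233).

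Fhl2 RNA was 129, 136, 114 and 120 CPM in LUAD, against 37.3, 50.6 and 82.3 CPM in AT2. The groups did not overlap, and AT2 library 3 came nearest to the LUAD range. This gave a log2 fold change of 1.15 ± 0.26 (SE; edgeR adjusted p = 0.0112), and the adjusted p was 0.0522 without AT2 RNA library 2. Within the sets the log2 ratio of means was 1.59 and 0.51 for RNA and 1.35 and 0.40 for footprints. Of the 2 listed Fhl2 transcripts, the one of 1563 bases held at least 99.2% of the count in every library.

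Plaur (ENSMUSG00000046223.10, chromosome 7, 24460937 to 24475970, plus strand) had 123, 105, 183 and 179 CPM of footprints in LUAD, against 50.6, 104 and 122 CPM in AT2. The 2 kinds overlapped, LUAD library 2 lying between AT2 libraries 2 and 3. The log2 fold change of 0.66 ± 0.34 (SE) did not pass (edgeR adjusted p = 0.208). It passed only with the library set as a term (0.00312), and the sets come from the spread of these same libraries. In the 6 other settings, DESeq2 among them, it did not pass. The 7 leave-one-out fits ranged from 0.153 to 0.389.

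Plaur RNA was 270, 267, 367 and 389 CPM in LUAD, against 116, 101 and 184 CPM in AT2. Every LUAD library was higher, and libraries of the second set were the higher ones within each kind. Plaur RNA thus had a log2 fold change of 1.28 ± 0.26 (SE; edgeR adjusted p = 0.0065), or 2.43-fold higher in LUAD. Within the sets the log2 ratio of RNA means was 1.31 and 1.04, and that of footprint means 1.17 and 0.67.

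The upstream windows of Plaur and Fhl2, the genes with higher RNA in LUAD, are shown in the same way. Fhl2 has a window at each of 2 annotated starts. Capitals mark the AP-1 site TGANTCA in Plaur, and in Fhl2 the CArG box (the element of serum response factor, SRF), a p53 half-site and the hypoxia core.
Plaur, chr7:24462233-24462482, plus strand: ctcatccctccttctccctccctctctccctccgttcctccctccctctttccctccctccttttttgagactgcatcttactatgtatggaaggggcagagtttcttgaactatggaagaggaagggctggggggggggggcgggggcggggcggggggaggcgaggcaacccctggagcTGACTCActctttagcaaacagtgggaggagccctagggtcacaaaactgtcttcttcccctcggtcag
Fhl2, distal start, chr1:43196762-43197011, minus strand: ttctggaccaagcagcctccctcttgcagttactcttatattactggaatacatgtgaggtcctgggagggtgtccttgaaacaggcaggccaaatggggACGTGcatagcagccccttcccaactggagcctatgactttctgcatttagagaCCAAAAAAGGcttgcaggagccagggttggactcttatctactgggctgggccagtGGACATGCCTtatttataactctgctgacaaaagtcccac
Fhl2, proximal start, chr1:43163962-43164211, minus strand: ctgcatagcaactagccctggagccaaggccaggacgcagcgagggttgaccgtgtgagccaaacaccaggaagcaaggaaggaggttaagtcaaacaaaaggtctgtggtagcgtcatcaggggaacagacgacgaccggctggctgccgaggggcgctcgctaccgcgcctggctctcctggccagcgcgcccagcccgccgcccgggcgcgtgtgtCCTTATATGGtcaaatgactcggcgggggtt
The Plaur window holds its AP-1 site 69 bases before the start, as 6.75% of windows hold one. Both Fhl2 windows hold a CArG box, 96 and 31 bases before the start, a motif in 1.47% of windows. The distal window also holds a p53 half-site (7.13% of windows). The TEAD motif GGAATG, in 12.6% of windows, is in none of the windows printed here.

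**Figure D2:**
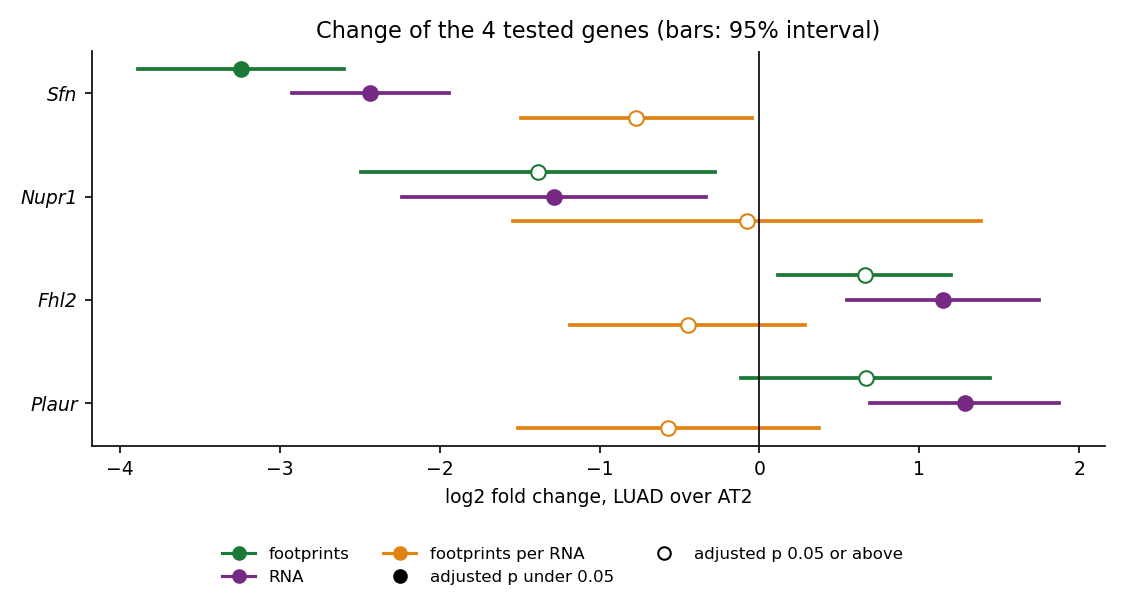
Log2 fold changes of LUAD over AT2 for the 4 tested genes in footprints, RNA and footprints per RNA. Points are edgeR estimates, filled where the adjusted p was under 0.05, and bars are 95% intervals. Sfn lies at -3.24 in footprints and -2.43 in RNA, and the RNA values of Fhl2 and Plaur lie at 1.15 and 1.28.

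Ndrg1 (ENSMUSG00000005125.13, chromosome 15, 66929318 to 66969641, minus strand) was represented by 1 listed transcript, a nonsense-mediated decay form of 591 bases. Its coding transcripts were not analysed here. The listed transcript had 0 counts in 12 of the 14 libraries. The exceptions were 12.2 and 19.6 estimated footprint counts in LUAD libraries 3 and 4, which are 0.825 and 1.26 CPM. In AT2 footprints a count of 0 allows up to 3 counts, or 0.768 to 1.81 CPM depending on the library. A difference between LUAD and AT2 was thus not detectable for this transcript at this depth, and the values say nothing of the gene as a whole.

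Whether the ribosome load per RNA differed was asked with the tissue-by-assay interaction in a fit of all 14 libraries. In the labels the RNA libraries carry the RiboLace protocol too, so how they were made is unclear and these ratios carry that limit. None of the 4 genes passed by edgeR or DESeq2, where 0.748% of 7086 genes passed by edgeR. Sfn alone had an unadjusted p under 0.05. Sfn had 0.616 footprint CPM per RNA CPM in LUAD, against 1.08 in AT2, from the group means. Its log2 difference was -0.77 ± 0.34 (SE; 95% interval -1.49 to -0.05; edgeR adjusted p = 0.331). Without AT2 footprint library 1 that difference was -1.06 (edgeR adjusted p = 0.0418), and over the 14 leave-one-out fits the adjusted p ran from 0.0418 to 0.599.

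For the other genes the intervals were wide. Fhl2 had 0.558 footprint CPM per RNA CPM in LUAD and 0.769 in AT2 (log2 difference -0.45, 95% interval -1.18 to 0.29; edgeR adjusted p = 0.617). Plaur had 0.456 in LUAD and 0.694 in AT2 (-0.57, interval -1.51 to 0.37; edgeR adjusted p = 0.619). Nupr1 had 0.367 in LUAD and 0.394 in AT2 (-0.08, interval -1.54 to 1.38; edgeR adjusted p = 0.982). These intervals hold both no difference and changes of more than 2-fold, so they do not show that load per RNA was alike.

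Levels between the genes were set side by side in TPM, which accounts for transcript length. In LUAD RNA the order was Plaur (228.6 ± 23.2 TPM), Nupr1 (221 ± 142), Sfn (139 ± 15.0) and Fhl2 (86.1 ± 15.9) (SD, n = 4). Plaur and Nupr1 overlapped across libraries, as did Nupr1 and Sfn, while Sfn and Fhl2 did not. In AT2 RNA the order was Sfn (777 ± 111 TPM), Nupr1 (552 ± 144), Plaur (102 ± 11.1) and Fhl2 (39.9 ± 9.50) (SD, n = 3), with no overlap between neighbours. Sfn thus led the 4 genes in AT2 RNA and ranked below Plaur and Nupr1 in LUAD RNA.

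In LUAD footprints the order was Plaur (180 ± 47.4 TPM), Sfn (94.3 ± 20.8), Nupr1 (81.8 ± 55.4) and Fhl2 (52.1 ± 6.68) (SD, n = 4), and of these neighbours only Plaur and Sfn did not overlap. In AT2 footprints Sfn was first (687 ± 442 TPM), before Nupr1 (142 ± 44.4), Plaur (102 ± 75.2) and Fhl2 (25.1 ± 15.9) (SD, n = 3). There too the first gene did not overlap the second and the other neighbours did. The wide AT2 spread came from library 1, where Sfn had 178 TPM, against 983 and 899 TPM in libraries 2 and 3. In CPM, Plaur did not lead in LUAD libraries 1 and 2. There Sfn had 158 and 124 CPM of footprints, and Plaur 123 and 105 CPM. Most LUAD Plaur footprints (59.3% to 68.6%) were assigned to retained-intron or decay transcripts, some of them short (347 and 872 bases). TPM weighs a count more on a shorter transcript, so the lead of Plaur depends on that assignment.

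The transcripts behind Plaur differed between assays. A retained-intron transcript of 872 bases held a large share of the footprints: 67.5%, 56.1%, 54.4% and 63.7% in LUAD libraries 1 to 4, against 39.4%, 73.4% and 47.7% in AT2 libraries 1 to 3. The protein-coding transcript of 1506 bases held 31.4% to 40.7% of footprints in LUAD and 22.5% to 58.2% in AT2. In RNA that coding transcript held 98.1% to 99.2% in LUAD and 95.4% to 100% in AT2. The split was thus between footprints and RNA, and the ranges of the 2 kinds overlapped. Transcripts of 1 gene share reads, so these shares are estimates; what divides them was not tested.

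**Figure D3:**
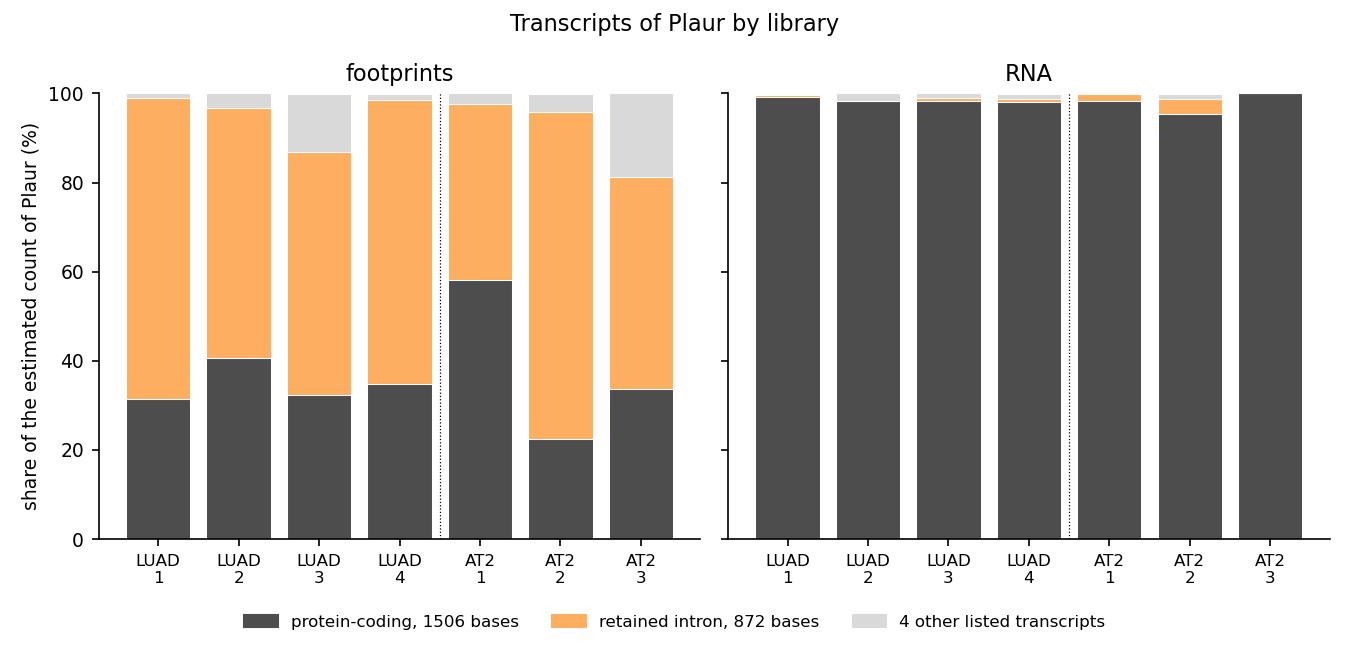
Share of the estimated count of Plaur held by each of its 6 listed transcripts, in percent, by library. The retained-intron transcript takes 39.4% to 73.4% of footprints over the 7 footprint libraries, and the protein-coding transcript at least 95.4% of RNA in each of the 7 RNA libraries.

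For Nupr1 the coding transcript of 829 bases held at least 98.6% of RNA in every library. In footprints a decay transcript of 587 bases took 5.43%, 0.0663%, 2.61% and 10.5% in LUAD, against 0%, 33.5% and 32.0% in AT2. AT2 libraries 2 and 3 were the high ones, and AT2 library 1 was the lowest of all 7. With the top transcript of each gene alone, the Nupr1 footprint change was -1.19 (edgeR adjusted p = 0.254).

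Translation of the genes was also listed ORF by ORF. The ORF lists are samples of their own, and no label used here ties them to footprint libraries of the same number. Library numbers given for ORFs are those of the ORF lists. The lists name 12 distinct ORFs in the 5 genes, 7 of them in Plaur. Each carries counts of P-sites, the positions of the ribosome's peptidyl site, split by reading frame, and a deposited RPKM value. An ORF is listed only where the authors' p-value was under 0.05, and the libraries differ in depth (2.734 to 11.821 M P-sites in LUAD and 1.419 to 2.697 M in AT2, computed from the RPKM values), so an ORF that is not listed is not shown to be untranslated. With 3 against 2 libraries no test of the tissues was made.

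The full 327-codon ORF of Plaur (chromosome 7, 24462510 to 24475471) was listed in 3 of 3 LUAD libraries with 22.4, 31.7 and 24.5 RPKM. In AT2 it was listed in library 2 alone, with 19.4 RPKM. In LUAD library 1, 260 of its 482 P-sites were in frame (53.9%, exact 95% interval 49.4% to 58.5%). In AT2 library 2 the count was 27 of 58 (46.6%, interval 33.3% to 60.1%). The values lie near each other, and the LUAD ones rest on more P-sites. Intervals cover counting error only.

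Of the other Plaur ORFs, 4 open at the same start codon, an ATG that begins at base 28 after the annotated start used for the promoter window, and end early on retained-intron or decay transcripts. The 207-codon ORF of the 872-base transcript was listed in 3 of 3 LUAD and 2 of 2 AT2 libraries, with 24.5, 31.2 and 28.3 RPKM in LUAD and 15.5 and 19.3 RPKM in AT2. Its P-sites were 331 in LUAD library 1, beside 482 of the full ORF. ORFs that share a start share P-sites, so these entries are not independent evidence of separate products.

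**Figure D4:**
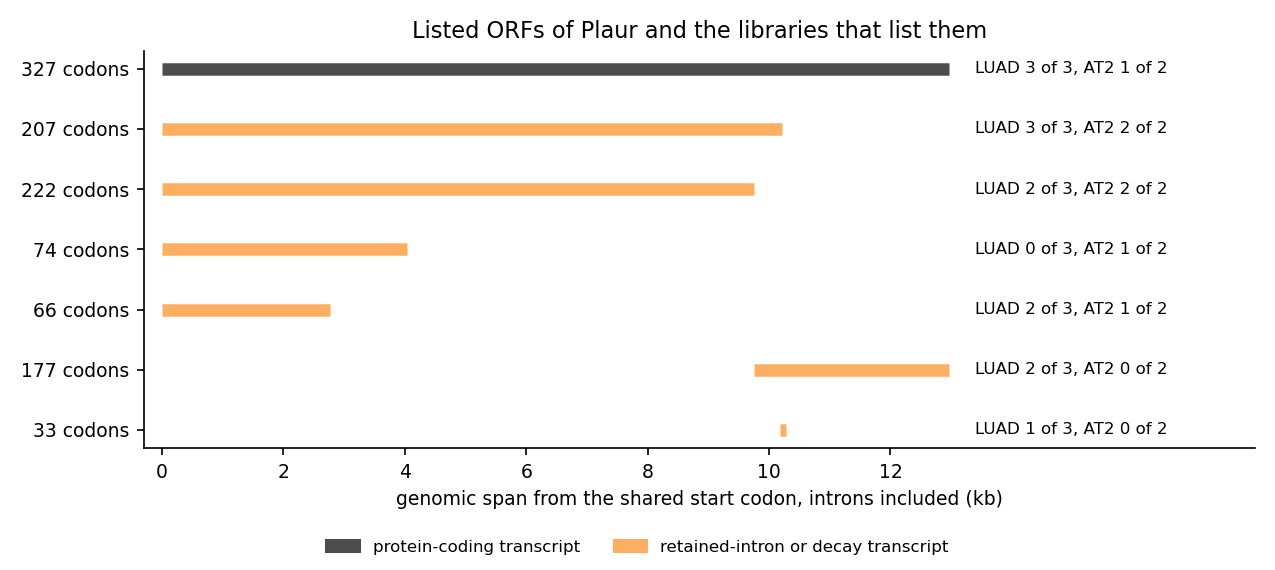
The 7 listed ORFs of Plaur as genomic spans in kb from the shared start codon, introns included, with the number of LUAD and AT2 libraries that list each. Of these ORFs 5 open at the shared start, and the full 327-codon ORF and the 207-codon ORF are each listed in 3 of 3 LUAD libraries.

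The 248-codon ORF of Sfn was listed with 3.41 RPKM in LUAD library 1 and with 24.6 RPKM in AT2 library 2. It had 30 of 47 P-sites in frame in that LUAD library (63.8%, exact 95% interval 48.5% to 77.3%) and 26 of 50 in that AT2 library (52.0%, interval 37.4% to 66.3%). Near-equal P-site numbers thus stood for unequal RPKM, since LUAD library 1 is the deepest of the ORF libraries (11.821 M P-sites). The 279-codon ORF of Fhl2 was listed with 10.1 RPKM in LUAD library 2 and with 11.8 RPKM in AT2 library 2.

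Nupr1 ORFs were listed in LUAD ORF libraries 1 and 2 and in no AT2 ORF library, while its RNA was lower in LUAD. The 80-codon ORF had 22.2 RPKM in LUAD library 1, with 63 of 117 P-sites in frame. A 43-codon ORF of the decay transcript, from the same start codon, had 35.4 RPKM in LUAD library 1 and 113 RPKM in LUAD library 2. The single Ndrg1 ORF, of 93 codons, had 6 of 11 P-sites in frame in LUAD library 3 (54.5%, interval 23.4% to 83.2%).

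More of the other transitional-state genes fell than rose. Of 28 further transitional genes tested, 2 rose and 11 fell in LUAD footprints (edgeR; 9.79% and 11.5% of all genes), and 6 rose and 10 fell in LUAD RNA (18.5% and 18.3%). Their median log2 fold change was -0.59 in footprints and -0.26 in RNA, beside 0.00 and 0.03 over all genes. The footprint rises were of Lcn2 (log2 fold change 4.001) and Lgals3 (0.61). Both calls were lost in each fit that left out 1 LUAD library, where the changes were 3.99 to 4.02 and 0.52 to 0.64, and that of Lgals3 was also lost without any 1 AT2 library. Over all 7 leave-one-out fits the Lcn2 footprint change ran from 3.35 to 11.9. The AT2 libraries held 30.0 Lcn2 footprint counts in all (2.80 ± 4.85 CPM, SD), so the size of its change is uncertain.

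Cdkn1a, the cell-cycle inhibitor p21 and a marker of the state, averaged 26.5 ± 10.9 CPM of footprints in LUAD and 344 ± 33.3 CPM in AT2 (SD, n = 4 and 3; log2 fold change -3.69, edgeR adjusted p = 0.000574). Tnip3, a regulator of NF-kB signalling, averaged 5.78 ± 2.10 CPM in LUAD and 53.8 ± 9.71 CPM in AT2. Emp2, a membrane protein of AT1 cells, fell in RNA to 65.6 ± 10.5 CPM in LUAD, against 782 ± 401 CPM in AT2. Lcn2, a secreted iron-siderophore carrier, rose in RNA to 135 ± 12.1 CPM in LUAD, against 5.96 ± 9.33 CPM in AT2. Fosl1, an AP-1 subunit, had 21.2 ± 15.5 CPM of RNA in LUAD and 0.362 ± 0.627 CPM in AT2.

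Several p53 targets fell alongside Sfn. None of the 5 other 14-3-3 genes tested passed, where 21.3% of all genes passed in footprints and 36.8% in RNA. Among 14 p53 targets tested, 7 fell and 0 rose in LUAD footprints by edgeR, where 11.5% of all genes fell and 9.79% rose (9 lower and 0 higher at an unadjusted p under 0.05; 8 and 0 by DESeq2). In RNA 5 fell and 1 rose, beside 18.3% and 18.5% of all genes; DESeq2 and the fit with the library set each gave 8 lower. Sesn2, a stress-induced inhibitor of growth signalling, averaged 4.51 ± 0.461 CPM of RNA in LUAD and 53.3 ± 5.40 CPM in AT2 (SD, n = 4 and 3). Ddit4l had 0.446 ± 0.319 CPM of footprints in LUAD, against 20.6 ± 5.09 CPM in AT2. The RNA rise was of Perp (log2 fold change 1.02); its call was lost in 6 of 7 leave-one-out fits, with changes of 0.74 to 1.06 in those fits.

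Of 6 other 14-3-3 genes, Ywhaq had no paired transcript and was not tested, and Ywhab, Ywhae, Ywhag, Ywhah and Ywhaz passed in neither assay by edgeR (1 lower at an unadjusted p under 0.05 in each, and 1 lower by DESeq2 in each). Their log2 fold changes ran from -0.92 (Ywhah) to 0.22 (Ywhae) in footprints and from -0.41 (Ywhag) to 0.21 (Ywhah) in RNA. Without AT2 footprint library 1, 1 of them was called lower in footprints. Sfn, at -3.24 and -2.43, lay outside both ranges.

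Of 17 tested genes of the ATF4 response, the programme that induces Nupr1, 7 rose and 1 fell in LUAD RNA (18.5% and 18.3% of all genes). In LUAD footprints 0 rose and 1 fell by edgeR, where 9.79% and 11.5% of all genes did (1 higher and 2 lower at an unadjusted p under 0.05; 1 and 1 by DESeq2). The RNA count was 4 without AT2 RNA library 1 or 2 or LUAD RNA library 3 or 4. Phgdh and Shmt2, enzymes of serine synthesis and use, averaged 956 ± 182 and 222 ± 71.1 CPM of RNA in LUAD, against 318 ± 110 and 67.4 ± 9.38 CPM in AT2 (SD, n = 4 and 3). The gene that fell was Sesn2, which is also on the p53 list. Nupr1 RNA was lower while most called members of this list were higher, and 9 of the 17 were not called. The Nupr1 call was itself lost in 4 of 7 leave-one-out fits. Whether ATF4 acted on Nupr1 here was not tested.

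Of 11 tested hypoxia genes, the programme that induces Ndrg1, 3 fell in LUAD footprints and 4 in RNA, and 0 rose in either by edgeR (0 and 1 higher at an unadjusted p under 0.05; 0 and 0 by DESeq2). Of all genes 11.5% fell and 9.79% rose in footprints, and 18.3% fell and 18.5% rose in RNA. With scaling on all transcripts 2 of the hypoxia genes were higher in RNA. The RNA falls numbered 2 without AT2 RNA library 1 or 2 or LUAD RNA library 3. P4ha1, a collagen prolyl hydroxylase, averaged 19.8 ± 7.04 CPM of RNA in LUAD and 116 ± 20.8 CPM in AT2 (SD, n = 4 and 3). Of the NDRG relatives, Ndrg3 passed in neither assay, and Ndrg2 rose in RNA to 24.4 ± 11.8 CPM in LUAD, against 9.48 ± 3.16 CPM in AT2. The Ndrg2 call was lost in 5 of 7 leave-one-out fits.

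The list for YAP-TEAD and SRF, pathways in which Fhl2 acts, holds targets and also Srf, Tead1, Tead4, Yap1 and Wwtr1 themselves. It had called genes in both directions. Of 18 tested, 2 rose and 5 fell in LUAD footprints (9.79% and 11.5% of all genes). In RNA 4 rose, Tead4 among them, and 5 fell, Srf and Wwtr1 among them (18.5% and 18.3% of all genes). By edgeR the shares of higher genes were near those of all genes. DESeq2 gave 4 higher and 7 lower in footprints, and 4 and 8 in RNA. With scaling on all transcripts the RNA falls numbered 1 and the footprint falls 3, and leaving out 1 library gave 2 to 5 falls in footprints and 1 to 7 in RNA. Ankrd1, a YAP target and titin-binding repressor, averaged 1748 ± 27.5 CPM of RNA in LUAD and 371 ± 110 CPM in AT2 (SD, n = 4 and 3). Axl, a receptor tyrosine kinase, averaged 269.5 ± 55.3 CPM in LUAD and 6.96 ± 2.29 CPM in AT2. Srf itself fell in RNA to 31.1 ± 3.90 CPM in LUAD, against 60.9 ± 3.54 CPM in AT2. Fhl3, the only other FHL gene paired with a transcript, had a footprint log2 fold change of -0.06 and was too low in RNA to test.

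Of 13 tested genes of the urokinase receptor system, 3 rose and 4 fell in LUAD RNA by edgeR (18.5% and 18.3% of all genes). DESeq2 gave 3 and 5 there. In LUAD footprints 2 rose and 2 fell by edgeR (9.79% and 11.5% of all genes), while DESeq2 gave 6 and 2. Scaling on all transcripts gave 4 and 2 in footprints. The list median log2 fold change was 0.85 in footprints and -0.04 in RNA, beside -0.004 and 0.03 over all genes. The footprint counts varied with the library left out, with 0 to 4 higher and 0 to 2 lower over the leave-one-out fits. Plau, which encodes urokinase, the ligand of Plaur, averaged 372 ± 135 CPM of RNA in LUAD and 82.1 ± 68.0 CPM in AT2 (SD, n = 4 and 3; edgeR adjusted p = 0.0158). That call was lost without AT2 RNA library 1 (0.0596) or 2 (0.0588). Plat, the tissue-type activator, averaged 69.3 ± 4.61 CPM in LUAD and 6.62 ± 3.22 CPM in AT2. Serpine2, an inhibitor of these proteases, averaged 10.1 ± 1.41 CPM of RNA in LUAD, against 38.9 ± 28.4 CPM in AT2.

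Of 107 list genes tested in footprints per RNA, 0 passed by edgeR (14 at an unadjusted p under 0.05; 7 by DESeq2). Of the named calls in footprints or RNA, none turned its direction under DESeq2 or scaling on all transcripts. Scaling on all transcripts shifted the median log2 fold change of all genes by 0.150 in footprints, 0.174 in RNA and 0.287 in footprints per RNA, so each direction is read against the ORF-listed genes. It changed the split of calls to 866 higher and 612 lower in footprints, beside 668 and 784, to 1802 and 909 in RNA, beside 1285 and 1273, and to 26 and 13 in footprints per RNA, beside 18 and 35. Sfn, Nupr1, Fhl2 and Plaur kept their directions in both assays under it.

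**Figure D5:**
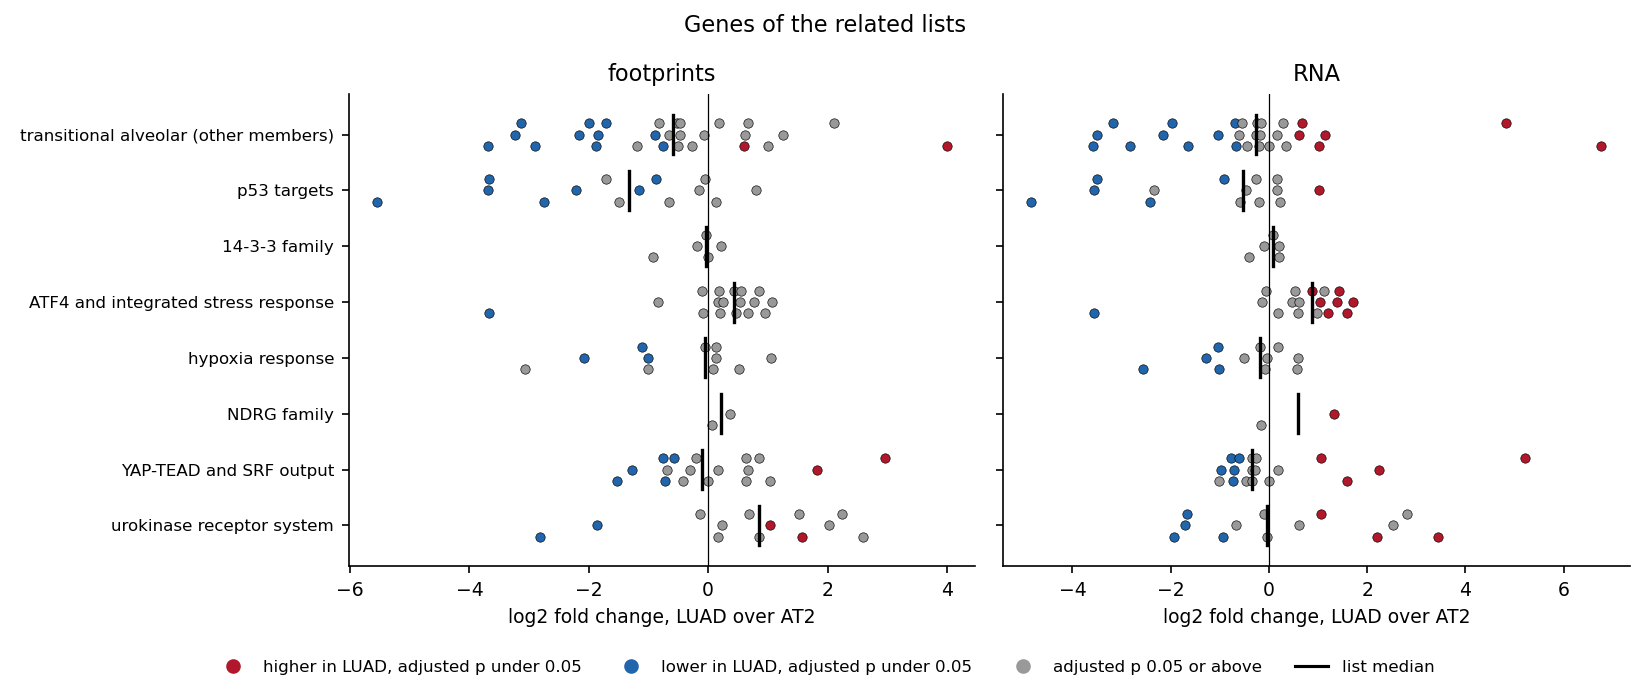
Log2 fold changes of LUAD over AT2 for the tested genes of 8 related lists, in footprints and RNA. Each point is 1 gene, coloured where edgeR's adjusted p was under 0.05, and bars are list medians. The p53 targets have a footprint median of -1.33 and the ATF4 list an RNA median of 0.87.

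Summed footprints of the AT2, AT1, basal and macrophage markers did not overlap between the tissues, while those of the ciliated marker did. The AT2 markers paired with a transcript (8 of 16) summed to 343 to 395 CPM of footprints in LUAD and 1087 to 2094 CPM in AT2, and Slc34a2 and Sftpb were at 0 in all LUAD footprint libraries. The listed transcript of Slc34a2 was at 0 in all RNA libraries too. The AT1 markers (7 of 12) summed to 139 to 222 CPM in LUAD and 642 to 3238 CPM in AT2. Against these sums, Muc1 of the AT2 list (log2 fold change 0.86, edgeR adjusted p = 0.00715) and Cav1 of the AT1 list (1.87, 0.00379) rose in LUAD RNA. The basal markers (3 of 9) summed to 568 to 617 CPM in LUAD and 832 to 995 CPM in AT2. The macrophage markers Mrc1 and Cd14 (2 of 10) summed to 53.2 to 69.0 CPM in LUAD and 5.93 to 6.28 CPM in AT2. The ciliated list had Tubb4b alone (541 to 1258 CPM in LUAD, 316 to 945 CPM in AT2), and club, fibroblast and endothelial markers had no paired transcript. Their part in the results for Sfn, Nupr1, Fhl2 and Plaur was not tested.

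Genes whose pattern was most like each member over the 14 libraries were found by the root mean square (RMS) difference of log2 CPM, centred within each assay, among 6714 genes. For Sfn they were Tgm1 (RMS 0.202), which encodes an epithelial transglutaminase, St8sia6 (0.240) and H2-K1 (0.351), whose reads may be shared with near copies. Tgm1 had a log2 fold change of -3.55 in footprints and -2.49 in RNA. For Nupr1 they were Cacnb3 (0.249), Myo5b (0.272) and Ddhd1 (0.286). For Fhl2 they were Idh2 (0.136), Lad1 (0.150) and Glrx (0.155), and for Plaur Ddx39 (0.101), Ssrp1 (0.104) and Tuba4a (0.108). Among the members, Fhl2 and Plaur were the most alike (0.31), and Sfn and Nupr1 differed by 0.97. Sfn and Nupr1 stood 1.41 to 1.90 from Fhl2 and Plaur. This likeness shares its libraries and depth with the fold changes, and it is given as a description.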

How the data were processed

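Per transcript, the deposited footprint and RNA tables give an estimated count and a TPM value, which the authors obtained from kallisto according to the submitters' processing notes (its version and transcript set are not stated there). The ORF lists give P-site counts by frame, RPKM and the authors' p-value, per the file headers, on mm10 according to those notes. The ORF caller is not stated, and the labels give the RNA libraries the same footprint (RiboLace) protocol as the footprint libraries, so how the RNA was prepared is unclear; RNA values are taken as labelled.

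Gene names could be attached to a transcript only where an ORF list names it: 22509 of 118489 transcripts and 7266 genes, with 65.0% to 70.0% of each library's count. By the lists, 4190 genes were named in LUAD only, 572 in AT2 only and 2622 in both kinds, which favours genes translated in LUAD. Estimated counts were summed per gene, rounded and tested with edgeR 4.0.16 in R 4.3.3 (TMM, filterByExpr, robust quasi-likelihood test, Benjamini-Hochberg over all genes tested, adjusted p under 0.05), with the total of the whole table as library size. DESeq2 1.42.0 and limma 3.58.1 on log2(TPM + 1) were alternatives, and the test was checked on simulated counts. Coordinates and promoter windows come from RefSeq on GRCm38.p6, which is mm10; 4 of the 5 genes matched a promoter entry.

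The members and gene lists were chosen with earlier results of these data known. From each list up to 2 genes per direction and comparison could be named, those with the largest fold change past the test, a mean of at least 50 counts in the higher group and no overlap; not all are described, and 1 result is not reported here. Same-numbered RNA libraries deviated alike (correlations 0.307, 0.250 and 0.351). So did differently numbered ones of the same library set, such as AT2 1 with LUAD 2 (0.266), AT2 2 with LUAD 1 (0.266) and AT2 3 with LUAD 4 (0.361). These values go with the library sets and do not show a pairing by number, and no label gives one. Same-numbered footprint libraries did not all deviate alike (0.441, -0.382 and 0.351). No pair of replicates agreed within sampling noise (lowest mean chi-square 5.42).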

Additional observations from a re-analysis of the deposited data

Results flagged for a closer look

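Sfn footprints in LUAD were flagged because LUAD library 1, at 158 CPM, stood apart from the other LUAD libraries, at 118 to 124 CPM: the gap to its nearest neighbour was 0.849 of the group's range. Chance flags about 1 in 20 groups of this kind. Library 1 has the lowest depth of the LUAD footprint libraries. Without it the Sfn footprint change kept its direction and its call.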

How the results depend on the processing

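Sfn kept its direction and call in footprints and RNA under every alternative run, and Plaur in RNA. The number of genes called was 1452 in footprints, against 933 with the replicate block and 2882 with the library set in the fit (chosen after seeing the data), and 841 to 1888 when 1 library was left out. In RNA 2558 genes passed, and 1613 to 3362 with 1 library left out. Footprints per RNA gave 53 genes, against 375 with DESeq2, 110 with the replicate block, 133 with the top transcript, 314 with the library set and 13 to 423 in the leave-one-out fits. On log2(TPM + 1), limma gave 833 higher and 144 lower genes in footprints, with a median of 0.61.

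In footprints Fhl2 passed with DESeq2 (adjusted p = 0.0304), scaling on all transcripts (0.0399) and the library set (0.0233), Nupr1 with DESeq2 (0.0223) and the set (0.000486), and Plaur with the set (0.00312). Leaving out 1 library gave adjusted p-values of 0.0423 to 0.160 for Nupr1. In RNA Nupr1 was lost with scaling on all transcripts (0.0733) and the top transcript (0.0639), and ran from 0.0264 to 0.125 over the leave-one-out fits; Fhl2 ran from 0.000629 to 0.0522. In footprints per RNA, Sfn ran from 0.0418 to 0.599, and Nupr1, near 0, turned its sign with scaling on all transcripts (adjusted p = 0.922, log2 difference 0.20) and the top transcript (0.927, 0.36), and ran from 0.878 to 0.9999 over 14 leave-one-out fits, 6 of which turned it. Ero1l, a hypoxia gene called lower in footprints, turned with limma on TPM (adjusted p = 0.942). The mean RPKM of Nupr1 in LUAD was 22.2 for its coding ORF and 71.1 over every listed ORF. The cause of these changes was not tested.

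The replicate block changed no call of Sfn, Nupr1, Fhl2 or Plaur; among the other genes described here it ended the call of Lgals3 in footprints (0.133). Under settings that kept all libraries, 191 list counts stayed within 1.5 times their value and 47 did not, while 229 calls of named genes stayed on their side of the threshold, 15 were lost and 1 reversed. Depth limits the AT2 values most, at 3.03 M footprint counts in library 1.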
